A study of Mus musculus with 24 samples.

Results

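The genes described here are 8 markers used to recognise the ischemia-type (A2) state of reactive astrocytes, namely *Tgm1*, *Ptx3*, *Sphk1*, *Cd109*, *Emp1*, *Slc10a6*, *Tm4sf1* and *B3gnt5*. They were chosen by symbol, and all 8 were among the 24411 genes in the expression tables. Astrocytes respond to injury and inflammation by changing shape and gene expression, a process called astrogliosis. Marker lists in general use set apart a state first described after stroke (ischemia-type, A2), a state first described after systemic lipopolysaccharide (neuroinflammatory, A1), and genes shared by both (pan-reactive). Microglia, the resident macrophages of the brain, release the cytokines IL-1α and TNFα and the complement protein C1q when they meet lipopolysaccharide (LPS), a bacterial cell wall component, and these factors together drive astrocytes into a reactive state.

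The RNA-seq study compared primary astrocytes and microglia from wild-type (WT) mice and from *SOD1* G93A mice, which carry a mutant human SOD1 transgene and model amyotrophic lateral sclerosis. Astrocytes came from forebrain cortex at postnatal day 5 and were immunopanned on HepaCAM after cells binding CD45, BSL I or O4 had been removed. Microglia were taken from whole brain between postnatal days 7 and 10 by magnetic selection for Cd11b. Astrocytes grew without serum in a medium with HBEGF, and microglia without serum in a medium with TGF-β2, IL-34 and cholesterol. Quiescent cells of both types received PBS. The mixture that activated astrocytes held 3 ng/ml of IL-1α with 30 ng/ml of TNFα and, of C1q, 400 ng/ml, while microglia were activated with 50 ng/ml of LPS. The 7 conditions analysed were quiescent and activated astrocytes of both genotypes, WT quiescent microglia, and LPS-activated microglia of both genotypes, each with 3 libraries. The 3 libraries of *SOD1* G93A quiescent microglia were not analysed here.

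The 21 libraries held between 2016139 and 11570122 reads assigned to genes, with a median of 5098168. Values are normalized counts, that is reads divided by a size factor for the library, unless RPM (reads per 1000000 reads of the library) or RPKM (RPM per kilobase of exon) are named. Comparisons of 2 conditions were tested with limma on log2(normalized count + 1) over all genes with a mean of at least 10, and a gene was called when its Benjamini-Hochberg adjusted p was under 0.001 and its change was more than 2-fold. Fold changes on this scale understate the change of genes with few reads. The labels and the methods text read here do not state whether the 3 libraries of a condition came from separate cultures or animals, and a supplementary table on biological replicates that the article names was not among the files read. All p-values therefore measure only the spread between these samples, and whether that spread is biological or technical is not known here.

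Markers of the labelled cell types were checked first. The 8 astrocyte markers, led by *Slc1a3*, summed to between 3949 and 5898 RPM in the 12 astrocyte libraries and to between 136 and 230 RPM in the 9 microglia libraries. The 8 microglia markers summed to between 9039 and 9546 RPM in WT quiescent microglia, to between 2582 and 2665 RPM in WT and between 2859 and 4444 RPM in *SOD1* G93A LPS-activated microglia, and to between 137 and 328 RPM in the astrocyte libraries. One library differed from its group in some genes. In replicate 3 of the *SOD1* G93A LPS-activated microglia, *Nos2*, which makes nitric oxide after LPS, was at 48.2 RPM, against 415 and 427 RPM in the other libraries of its group. The fractalkine receptor gene *Cx3cr1* was at 769 RPM in that library, against 444 and 417 RPM. These genes were chosen after their values were seen. Between genotypes in LPS-activated microglia, the counts of called genes and the fold changes of *Emp1*, *Ptx3* and *Cx3cr1* are given with and without that library. Levels, marker sums and counts of groups that did not overlap include that library. Over 12536 genes its Pearson r of log2(RPM + 1) with the others of its group was 0.9835 and 0.9841, against 0.9951 between those. WT quiescent astrocyte replicates 1 and 3 were less alike, at 0.9737, the lowest value within a group.

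The 8 markers differed widely in level before any treatment. On the RPKM scale, which allows levels to be compared between genes, the highest in WT quiescent astrocytes was *Cd109* at 13.6 ± 2.53 (SD, n = 3), followed by *B3gnt5* at 12.4 ± 1.73 and *Emp1* at 6.64 ± 0.432. Exon lengths came from a reference annotation matched by symbol. The methods text read here does not name the annotation used in counting, so the order between genes depends on these lengths. The ranges of *Cd109* and *B3gnt5* were within their spread of each other. *Ptx3* was at 2.39 ± 1.03 RPKM and *Tm4sf1* at 1.43 ± 0.387 RPKM. *Sphk1* was at 0.183 ± 0.0842 RPKM and *Tgm1* at 0.0797 ± 0.138 RPKM, both close to the limit of detection. In WT activated astrocytes the order was different, with *Ptx3* at 156 ± 17.1 RPKM and *Tm4sf1* at 48.9 ± 3.69 RPKM ahead of *Cd109* at 19.4 ± 1.02 RPKM. *Ptx3* then stood at the 98.5th percentile of the 15735 genes with a read in that condition, against a percentile of 39.2 among 15470 in WT quiescent astrocytes. In microglia *Emp1* was the highest of the 8, at 9.80 ± 0.586 RPKM in WT quiescent and 15.2 ± 1.50 RPKM in WT LPS-activated cells.

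**Figure D1:**
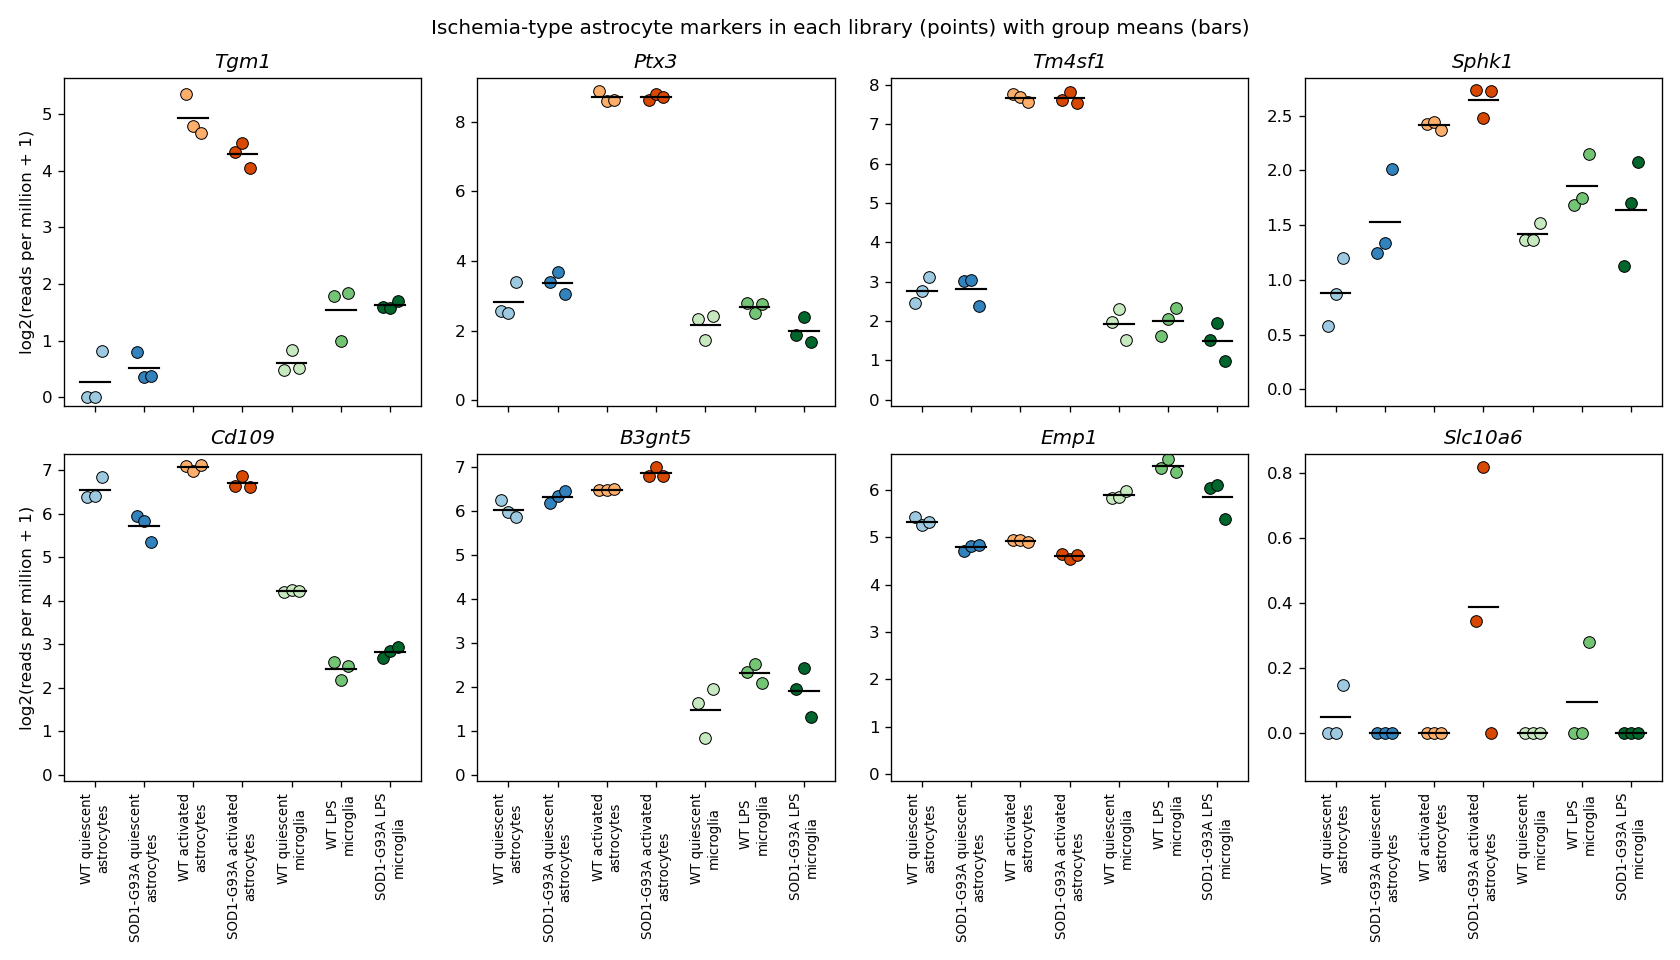
Level of each of the 8 genes as log2(RPM + 1) in every library (points, 3 per condition) with the condition mean (horizontal line). *Tgm1*, *Ptx3* and *Tm4sf1* were high in the activated astrocytes of both genotypes, and *Cd109* and *B3gnt5* in all astrocytes. *Emp1* was high in microglia of both genotypes, except in the library named next, while *Slc10a6* was at or near 0 throughout. For *Emp1*, replicate 3 of the *SOD1* G93A LPS-activated microglia lay within the range of WT quiescent astrocytes.

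*Slc10a6*, which encodes a transporter of sulfated steroids (chr5:103605711-103629403, minus strand, GRCm38, as for all positions given here), was practically not detected. It had 6 reads in all, in 4 of 21 libraries, with at most 3 in any one. These were 1 read in WT quiescent astrocytes, 4 in *SOD1* G93A activated astrocytes and 1 in WT LPS-activated microglia. The 17 libraries with no read allow a level of up to between 0.259 and 1.49 RPM, counting 3 reads as the limit that a count of 0 allows and covering counting error only. It was too low to be tested in any comparison, and a difference in *Slc10a6* was not detectable at this depth.

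The comparison of WT activated with WT quiescent astrocytes asked which of these genes respond to the cytokine mixture. *Tgm1*, *Ptx3* and *Tm4sf1* rose by more than 30-fold, and the other tested genes changed by less or with less certainty. Of the 7 genes tested, 3 were called, all higher, while 11.5% of all 12336 genes tested were called in either direction and 6% were called higher. *Tgm1* and *Sphk1* were below the filter in quiescent cells and were tested only because of their level after activation. The 3 WT quiescent libraries lay apart from the 3 activated ones for all 7 genes, as for 50.9% of all genes tested.

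*Tgm1* encodes transglutaminase 1, an enzyme that crosslinks proteins and builds the cornified envelope of skin (chr14:55700009-55713926, minus strand). Its normalized counts were 0, 0 and 3.74 in WT quiescent astrocytes, from 0, 0 and 7 reads, and 195, 128 and 120 in WT activated astrocytes. All activated libraries were thus high and all quiescent libraries at or near 0, with no overlap. Activation changed it by a log2 fold change of 6.43 ± 0.556 (SE; limma adjusted p = 4.39e-06), and it ran from 4.63 to 7.18 over the alternative analyses. *Tgm1* was called in 15 of 15 of these. A filter of at least 10 normalized counts in every library removed *Tgm1*, so it was not tested under that alternative.

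*Ptx3* encodes pentraxin 3, a secreted pattern recognition protein that binds complement C1q and the hyaluronan matrix (chr3:66219910-66225805, plus strand). It had 23.3, 22.3 and 47.5 normalized counts in WT quiescent astrocytes and 2290, 1867 and 1965 after activation. Every activated library was far above every quiescent one, and replicate 3 was the highest of the quiescent libraries. Its log2 fold change was 6.08 ± 0.235 (SE; limma adjusted p = 1.33e-08). *Ptx3* lies inside *Veph1*, which is on the opposite strand and had 214 reads over all 21 libraries, against 11946 for *Ptx3*. Annotated genes on the opposite strand also overlap *Tgm1*, *Sphk1*, *Cd109* and *Slc10a6*, and none of those had values in the expression data. The library kit keeps the strand, but the counting is not stated to use it.

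*Tm4sf1* encodes a membrane protein of the L6 four-transmembrane family that is found on endothelial and tumour cells and in cell protrusions (chr3:57285611-57301988, minus strand). It rose from 21.0, 27.6 and 37.9 normalized counts in WT quiescent to 1059, 997 and 928 in WT activated astrocytes. The groups did not overlap and the activated libraries differed little among themselves. The log2 fold change was 5.10 ± 0.180 (SE; limma adjusted p = 6.99e-09). *Tm4sf1* and *Ptx3* were called under all 16 alternative analyses, the edgeR and DESeq2 tests included.

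*Sphk1* encodes sphingosine kinase 1, which makes the signalling lipid sphingosine-1-phosphate (chr11:116530925-116536674, plus strand). Its values were low, at 2.33, 3.94 and 6.40 normalized counts in WT quiescent and 21.2, 21.4 and 20.7 in WT activated astrocytes, which correspond to between 1 and 12 reads and between 22 and 30 reads in a library. The activated libraries were all higher than the quiescent ones. The log2 fold change was 2.16 ± 0.409 (SE) with a limma adjusted p of 0.00153, so *Sphk1* missed the limit. It passed without WT quiescent replicate 1 (log2 fold change 1.87, adjusted p = 0.000998) or replicate 3 (2.45, adjusted p = 0.000308), with a pseudocount of 5 and with edgeR, and its adjusted p ran from 0.000308 to 0.0129 over the alternatives.

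The remaining 3 genes were already expressed in quiescent astrocytes and changed by less than 2-fold. *Cd109*, which encodes a membrane-anchored co-receptor that restrains TGF-β signalling (chr9:78615546-78716253, plus strand), had 389, 403 and 562 normalized counts in WT quiescent and 660, 607 and 691 in WT activated astrocytes. *B3gnt5*, which encodes the enzyme that starts lacto-series glycosphingolipids (chr16:19760208-19772753, plus strand), had 349, 293 and 282 in quiescent and 423, 421 and 442 in activated cells. *Emp1*, which encodes an epithelial membrane protein of the PMP22 family (chr6:135362545-135383173, plus strand), had 198, 177 and 192 in quiescent and 145, 143 and 143 in activated cells. *Cd109* and *B3gnt5* thus had their 3 highest values in the activated libraries and *Emp1* its 3 lowest, with no overlap. The log2 fold changes were 0.55 ± 0.134 for *Cd109* (SE; limma adjusted p = 0.00738), 0.48 ± 0.102 for *B3gnt5* (adjusted p = 0.00325) and -0.39 ± 0.106 for *Emp1* (adjusted p = 0.013), and none was called.

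**Figure D2:**
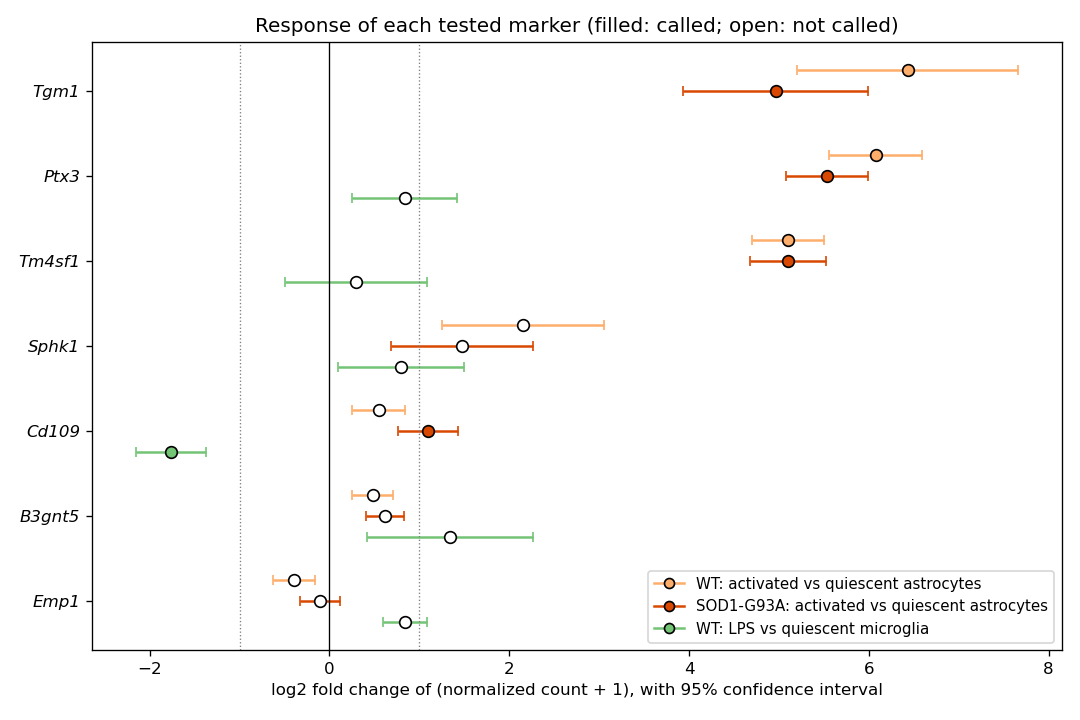
Log2 fold change of (normalized count + 1), with its 95% confidence interval (horizontal axis), of the 7 tested genes in the response of WT astrocytes, *SOD1* G93A astrocytes and WT microglia; filled points were called, dotted lines mark 2-fold, and *Tgm1* was too low to be tested in microglia. *Tgm1*, *Ptx3* and *Tm4sf1* lie above 4.9 in astrocytes of both genotypes, and *Cd109* was called higher in *SOD1* G93A astrocytes and lower in WT microglia.

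Other marker lists gave the setting for these changes. The 4 other ischemia-type markers in general use were all called higher in WT activated astrocytes, with log2 fold changes of 3.92 for the cytokine gene *Clcf1*, 2.44 for the prostaglandin synthase gene *Ptgs2*, 1.67 for the annexin partner gene *S100a10* and 1.36 for the LPS co-receptor gene *Cd14*. *Cd14* was not called by limma without a trend. Of 11 tested pan-reactive markers, 9 were called higher, with a median log2 fold change of 4.26 over the 11. The largest rises were those of the metalloreductase gene *Steap4* (7.18) and the iron-binding lipocalin gene *Lcn2* (6.70). Of 11 tested neuroinflammatory (A1) markers, 5 were called higher, with a median of 1.59, and the complement gene *C3* (6.30) and the guanylate-binding protein gene *Gbp2* (4.82) rose most. Genes of all 3 marker lists were called higher in the same libraries, and the lists were not tested against each other.

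Relatives and partners of the 8 genes were examined from lists of gene families and pathways. In the sphingosine-1-phosphate pathway, 2 of 10 tested genes besides *Sphk1* were called, both receptors and both higher, *S1pr3* (log2 fold change 3.64) and *S1pr2* (1.21). The other kinase gene, *Sphk2*, was at 0.55, not called. Among hyaluronan matrix partners of *Ptx3*, 3 of 9 were called higher, led by the hyaluronan synthase gene *Has2* (5.44) and the hyaluronan receptor gene *Cd44* (2.29). *Tnfaip6*, which encodes a protein that transfers chains onto hyaluronan, was called lower (-1.13), a call that held in 11 of 16 alternatives. It was lost without WT activated replicate 1 (-1.04) or 2 (-1.06) or WT quiescent replicate 2 (-1.05). The neuronal pentraxin gene *Nptx2* was called lower as well (-1.11), while *Nptx1* (-0.53) and *Nptxr* (-0.15) were not called.

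Other families had 1 called gene or few. *Emp2*, a relative of *Emp1*, was called higher (log2 fold change 2.02), whereas *Pmp22* (-0.74) and *Emp3* (1.37) were not called. The protease inhibitor gene *A2m* (2.13) and *C3* were called higher among 3 tested genes of the alpha-2-macroglobulin family, to which *Cd109* belongs. Of 7 TGF-β ligand and receptor genes, *Tgfbr3* was called higher (2.61). By limma, DESeq2 and edgeR alike, 0 of 2 other transglutaminases, 0 of 2 other SLC10 genes and 0 of 2 other B3GNT genes tested were called. At an unadjusted p under 0.05 in limma there were 1 transglutaminase (*Tgm2*), 0 SLC10 genes and 1 B3GNT gene (*B3gntl1*), against 46.8% of all genes tested. No other gene of the L6 family was high enough to be tested. Of 16 tested genes of the gp130-STAT3 pathway, through which cytokines of the interleukin-6 family signal, 9 were called higher and 1 lower. The largest rises were *Bcl3* (6.01) and *Lif* (5.41), and the receptor gene *Lifr* fell by 1.24 on the log2 scale.

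Cell markers were measured beside these changes. The astrocyte markers, led by *Slc1a3*, summed to between 4760 and 5898 RPM before and between 4302 and 4336 RPM after activation. Of 8 tested, *Hepacam* (-1.15) and *Aldoc* (-1.94) were called lower, and 7 had an unadjusted p under 0.05, against 46.8% of all genes tested. *Gfap* (1.08) was called higher only without WT quiescent replicate 3 (1.42, adjusted p = 2.94e-10, in a range from 2.94e-10 to 0.0223) and with a replicate block.

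Markers of other cell types were measured as well. Of 8 endothelial markers, 1 was tested, *Flt1*, and it was called higher. The summed endothelial level was between 8.93 and 13.4 RPM in WT quiescent and between 137 and 154 RPM in WT activated astrocytes, of which *Flt1* made up 144 RPM on average, while *Cldn5* and *Cdh5* had no read in any activated library. The 8 pericyte and fibroblast markers, led by *Acta2*, summed to between 59.5 and 81.5 RPM before and between 67.1 and 84.2 RPM after activation, with *Kcnj8* at 0 in both. Of 5 of these tested, *Dcn* (log2 fold change 4.14) and *Lum* (5.42) were called higher and *Acta2* lower (-1.16). The call of *Acta2* was lost without WT activated replicate 1 (-1.02) or 3 (-1.09) or WT quiescent replicate 2 (-1.18). The 8 microglia markers, led by *Csf1r*, summed to between 137 and 247 RPM before and between 149 and 269 RPM after. Of 7 of them tested, limma, DESeq2 and edgeR each called 0, and 0 had an unadjusted p under 0.05, against 46.8% of all genes. The 8 oligodendrocyte lineage markers, led by *Olig1*, summed to between 2778 and 2956 RPM before and between 1043 and 1104 RPM after, and 2 of 7 tested were called lower, *Olig1* (-1.74) and *Olig2* (-1.28).

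The 8 neuron markers, led by *Tubb3*, summed to between 25.4 and 30.8 RPM before and between 49.3 and 54.7 RPM after activation, and 2 of 5 tested were called higher. The 5 epithelial or ependymal markers, nearly all *Foxj1*, summed to between 55.6 and 75.6 RPM before and between 44.2 and 49.7 RPM after. The part of such cells in the changes of *Tgm1*, *Ptx3* and *Tm4sf1* was not tested. In bulk RNA, fewer cells of a type and less RNA per cell cannot be told apart.

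The same treatment was given to *SOD1* G93A astrocytes. Their activated and quiescent libraries were compared in 1 fit of all 12 astrocyte libraries, scaled together. Of 7 genes tested, 4 were called, all higher, while 13.3% of all genes tested were called in either direction, 6.74% higher and 6.59% lower. They were *Tgm1*, *Ptx3*, *Tm4sf1* and *Cd109*. As in WT cells, *Tgm1* and *Sphk1* were below the filter in quiescent cells.

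*Tgm1* had 3.38, 1.22 and 1.33 normalized counts in quiescent and 89.5, 101 and 73.7 in activated *SOD1* G93A astrocytes. *Ptx3* had 43.5, 52.5 and 31.9 in quiescent and 1853, 2099 and 2007 in activated cells. *Tm4sf1* had 32.4, 31.8 and 18.6 in quiescent and 920, 1067 and 887 in activated cells. For these 3 genes the activated libraries were all far above the quiescent ones. The log2 fold changes were 4.97 ± 0.487 for *Tgm1* (SE; limma adjusted p = 2.14e-07), 5.54 ± 0.217 for *Ptx3* (adjusted p = 2.63e-12) and 5.10 ± 0.1996 for *Tm4sf1* (adjusted p = 2.59e-12).

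*Cd109* had 280, 248 and 174 normalized counts in quiescent and 466, 554 and 465 in activated *SOD1* G93A astrocytes. The activated values were all higher, and quiescent replicate 3 was the lowest of the 6. The log2 fold change was 1.10 ± 0.157 (SE; limma adjusted p = 1.85e-05). Without that quiescent replicate it was 0.90, under 2-fold and so not called, with an adjusted p of 6.54e-05 in a range from 1.45e-09 to 0.000585 over the alternatives. *B3gnt5* was at 0.62 ± 0.0984 (adjusted p = 6.08e-05), under 2-fold, *Sphk1* at 1.48 ± 0.373 (adjusted p = 0.00388) and *Emp1* at -0.11 ± 0.104 (adjusted p = 0.436). *Sphk1* was called with quantile normalization, DESeq2 and edgeR, with adjusted p between 0.000476 and 0.0204 over the alternatives. The 4 other ischemia-type markers were again all called higher, at 3.84 for *Clcf1*, 2.15 for *S100a10*, 2.14 for *Ptgs2* and 1.23 for *Cd14*.

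Cell markers were measured in these libraries too. The astrocyte markers, led by *Slc1a3*, summed to between 3949 and 4871 RPM in *SOD1* G93A quiescent and between 4251 and 4334 RPM in activated astrocytes. Of 8 tested, *Gfap* (1.94) was called higher and *Aldoc* (-1.26) lower, and 6 had an unadjusted p under 0.05, against 50.4% of all genes tested. The microglia markers summed to between 218 and 328 RPM in *SOD1* G93A quiescent astrocytes, led by *Csf1r*, and between 147 and 206 RPM in activated ones. Of 7 tested, limma, DESeq2 and edgeR each called 0, and 6 had an unadjusted p under 0.05, against 50.4% of all genes. The oligodendrocyte lineage markers, led by *Olig1*, summed to between 3177 and 3421 RPM before and between 1014 and 1079 RPM after activation, and *Olig1* (-1.89) and *Olig2* (-1.41) were called lower of 7 tested. The endothelial markers, led by *Flt1*, summed to between 6.82 and 7.72 RPM before and between 112 and 118 RPM after, with *Cldn5* and *Cdh5* at 0 in both, and *Flt1* was called (4.41).

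In the same libraries the pericyte and fibroblast markers, led by *Acta2*, summed to between 38.9 and 55.2 RPM before and between 55.4 and 57.6 RPM after. Of 4 tested, *Dcn* (3.97), *Lum* (4.60) and *Pdgfrb* (1.22) were called higher. The call of *Pdgfrb* was lost without any 1 of the 3 *SOD1* G93A quiescent libraries (1.25, 1.24 and 1.16 without replicates 1, 2 and 3) or without *SOD1* G93A activated replicate 1 (1.24) or 3 (1.06). The neuron markers summed to between 19.7 and 24.9 RPM before, led by *Gad1*, and between 32.8 and 37.9 RPM after, led by *Tubb3*, and 2 of 5 tested were called higher. The epithelial or ependymal markers, led by *Foxj1*, summed to between 48.8 and 52.2 RPM before and between 36.5 and 39.2 RPM after. The part of such cells in the changes of *Tgm1*, *Ptx3*, *Tm4sf1* and *Cd109* was not tested.

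Whether the response differed between genotypes was tested as the difference between the 2 responses in that fit. By limma, 0 of the 7 genes were called, as were 0% of all 12269 genes tested, and DESeq2 and edgeR also called 0 of the 7, although they called 22 and 4 of all genes. At an unadjusted p under 0.05 there was 1 of 7, against 8.30% of all genes tested. It was *Cd109*, whose response was 0.55 larger on the log2 scale in *SOD1* G93A astrocytes (95% confidence interval 0.0843 to 1.02; adjusted p = 0.516). The difference was -1.41 for *Tgm1* (95% confidence interval -2.86 to 0.0493), -0.53 for *Ptx3* (-1.18 to 0.116) and 0.01 for *Tm4sf1* (-0.585 to 0.608). Over the alternative analyses that of *Tgm1* ran from -2.08 to -0.71. *Tgm1* passed the filter of this fit only through the activated libraries. Its quiescent libraries held between 0 and 7 reads in WT and between 1 and 7 in *SOD1* G93A cells, so the size of its difference rests on values near 0. Without WT quiescent replicate 3 the difference was -0.87 for *Ptx3* and -0.20 for *Tm4sf1*. *Tm4sf1* also changed sign without *SOD1* G93A quiescent replicate 3 (-0.24), WT activated replicate 3 (-0.04) or *SOD1* G93A activated replicate 2 (-0.07). *Cd109* was at 0.36 without *SOD1* G93A quiescent replicate 3, and the difference of *Ptx3* was at -0.35 without WT quiescent replicate 2. The call of *Cd109* in one genotype and not in the other is therefore not shown to be a difference between the genotypes.

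The genotypes were then compared directly within each state. These comparisons share libraries with the ones above, so their values are given side by side and not counted as separate evidence. In quiescent astrocytes, *SOD1* G93A against WT, limma called 0 of 5 genes tested, against 0% of all 12271 genes, and DESeq2 and edgeR called 0 of the 5 and 7 and 0 of all genes. Of the 5, 3 had an unadjusted p under 0.05, as had 8.70% of all genes tested. *Cd109* had 410, 420 and 583 normalized counts in WT and 307, 274 and 194 in *SOD1* G93A quiescent astrocytes, and *Emp1* had 209, 185 and 199 in WT and 127, 134 and 135 in *SOD1* G93A cells. All 3 *SOD1* G93A values of both genes lay below all WT values. The log2 fold changes were -0.87 ± 0.186 for *Cd109* (SE; limma adjusted p = 0.22) and -0.58 ± 0.116 for *Emp1* (adjusted p = 0.183), so neither passed the limit over all genes. These 2 of 5 genes had groups that did not overlap, as had 14.6% of all genes tested.

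The other 3 genes tested in quiescent cells overlapped between genotypes. *B3gnt5* was at a log2 fold change of 0.28 ± 0.119 (adjusted p = 0.543), *Ptx3* at 0.58 ± 0.313 (adjusted p = 0.613) and *Tm4sf1* at 0.02 ± 0.301 (adjusted p = 0.991). Without WT quiescent replicate 3 *Ptx3* was at 0.92 and *Tm4sf1* at 0.22. The sign of *Tm4sf1* changed without WT quiescent replicate 1 (-0.18) or *SOD1* G93A quiescent replicate 1 (-0.11) or 2 (-0.10), and it was at 0.26 without replicate 3. *Sphk1*, too low to be tested, had 2.46, 4.10 and 6.64 normalized counts in WT and 6.88, 7.42 and 14.8 in *SOD1* G93A quiescent astrocytes. All 3 values were higher in the *SOD1* G93A libraries, by few reads. *Tgm1* was also too low, at up to 3.87 in WT and up to 3.70 in *SOD1* G93A libraries.

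Cell markers were summed in the same quiescent astrocytes, given here as WT and then *SOD1* G93A libraries. The microglia markers, led by *Csf1r*, summed to between 137 and 247 RPM and between 218 and 328 RPM, and the oligodendrocyte lineage markers, led by *Olig1*, to between 2778 and 2956 RPM and between 3177 and 3421 RPM. The astrocyte markers, led by *Slc1a3*, summed to between 4760 and 5898 RPM and between 3949 and 4871 RPM. Sums of the pericyte and fibroblast markers, led by *Acta2* and with *Kcnj8* at 0, were between 59.5 and 81.5 RPM and between 38.9 and 55.2 RPM. The epithelial or ependymal markers, led by *Foxj1*, were at 55.6 to 75.6 RPM and 48.8 to 52.2 RPM, and the neuron markers at 25.4 to 30.8 RPM (led by *Tubb3*) and 19.7 to 24.9 RPM (led by *Gad1*). For the endothelial markers, led by *Flt1* and with *Cldn5* at 0, they were 8.93 to 13.4 RPM and 6.82 to 7.72 RPM. By limma, DESeq2 and edgeR alike, 0 genes of each list were called. At an unadjusted p under 0.05 in limma there were 4 of 7 tested microglia, 2 of 7 oligodendrocyte lineage, 3 of 8 astrocyte, 1 of 3 pericyte and fibroblast, 1 of 1 epithelial or ependymal, 2 of 4 neuron and 1 of 1 endothelial markers, against 8.70% of all genes. Their part in the values of the 8 genes was not tested.

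In activated astrocytes, *SOD1* G93A against WT, limma called 0 of 7 genes, against 0.645% of all 12098 genes tested (0.521% higher and 0.124% lower), and DESeq2 and edgeR called 0 of the 7 and 81 and 84 of all genes. Of the 7, 4 had an unadjusted p under 0.05, as had 20.4% of all genes tested. *B3gnt5* had 365, 363 and 379 normalized counts in WT and 468, 543 and 474 in *SOD1* G93A activated astrocytes. *Cd109* had 568, 524 and 592 in WT and 427, 505 and 424 in *SOD1* G93A cells. *Tgm1* had 168, 110 and 103 in WT and 82.0, 92.5 and 67.2 in *SOD1* G93A cells. All *SOD1* G93A values were higher than all WT values for *B3gnt5* and lower for *Cd109* and *Tgm1*, without overlap. The log2 fold changes were 0.42 ± 0.0757 for *B3gnt5* (SE; limma adjusted p = 0.00115), -0.31 ± 0.0791 for *Cd109* (adjusted p = 0.0176) and -0.63 ± 0.166 for *Tgm1* (adjusted p = 0.0246), all under 2-fold. Without WT activated replicate 1 *Tgm1* was at -0.41.

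*Emp1* was also lower in all *SOD1* G93A activated libraries, at 103, 96.9 and 104 against 125, 124 and 123 normalized counts (log2 fold change -0.29 ± 0.115; adjusted p = 0.152). *Sphk1* was higher in all of them, at 24.3, 19.8 and 24.4 against 18.3, 18.5 and 17.7 (0.31 ± 0.261; adjusted p = 0.567). In all, 5 of 7 genes had groups that did not overlap, against 24.1% of all genes tested. *Ptx3* and *Tm4sf1* overlapped between genotypes. *Ptx3* had 1973, 1611 and 1685 normalized counts in WT and 1699, 1915 and 1828 in *SOD1* G93A activated astrocytes, with a log2 fold change of 0.05 ± 0.0715 (SE). *Tm4sf1* had 912, 861 and 795 in WT and 843, 973 and 808 in *SOD1* G93A cells, at 0.03 (95% confidence interval -0.125 to 0.184). The sign changed for *Ptx3* without WT activated replicate 2 (-0.01), and for *Tm4sf1* without WT activated replicate 3 (-0.02) or *SOD1* G93A activated replicate 2 (-0.05).

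The same lists were summed in activated astrocytes, again WT before *SOD1* G93A. The microglia markers were at 149 to 269 RPM and 147 to 206 RPM, and the astrocyte markers, led by *Slc1a3*, at 4302 to 4336 RPM and 4251 to 4334 RPM. The oligodendrocyte lineage markers, led by *Olig1*, were at 1043 to 1104 RPM and 1014 to 1079 RPM. Endothelial markers, led by *Flt1* and with *Cldn5* and *Cdh5* at 0, were at 137 to 154 RPM and 112 to 118 RPM. Pericyte and fibroblast markers, led by *Acta2*, were at 67.1 to 84.2 RPM and 55.4 to 57.6 RPM. The neuron markers, led by *Tubb3*, summed to 49.3 to 54.7 RPM and 32.8 to 37.9 RPM, and the epithelial or ependymal markers, led by *Foxj1*, to 44.2 to 49.7 RPM and 36.5 to 39.2 RPM. Of each list limma, DESeq2 and edgeR called 0 genes, while *Dcn* was called with a replicate block (-1.07, adjusted p = 0.000696, in a range from 0.000696 to 0.143 over the alternatives). In limma 0 of 7 tested microglia, 5 of 8 astrocyte, 4 of 7 oligodendrocyte lineage, 1 of 1 endothelial, 2 of 5 pericyte and fibroblast, 4 of 5 neuron and 1 of 1 epithelial or ependymal markers had an unadjusted p under 0.05, against 20.4% of all genes. The part of these markers in the differences between genotypes was not tested.

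Microglia, the cells that supply the cytokines in the brain, were compared next. In WT quiescent microglia against WT quiescent astrocytes, in 1 fit of the 12 WT libraries, 3 of 7 genes were called, against 47.6% of all 12334 genes tested (22% higher and 25.6% lower in microglia). *B3gnt5* had 300, 254 and 251 normalized counts in astrocytes and 12.5, 4.87 and 17.6 in microglia. *Cd109* had 334, 349 and 501 in astrocytes and 105, 112 and 109 in microglia. *Emp1* had 170, 154 and 171 in astrocytes and 336, 353 and 380 in microglia. *B3gnt5* and *Cd109* were thus low and *Emp1* high in every microglia library. The log2 differences were -4.56 ± 0.309 for *B3gnt5* (SE; limma adjusted p = 3.5e-09), -1.83 ± 0.158 for *Cd109* (adjusted p = 5.83e-08) and 1.11 ± 0.101 for *Emp1* (adjusted p = 1.1e-07). With quantile normalization *Emp1* was at 0.99, just under 2-fold, and *Sphk1* and *Tgm1* were called higher. These 2 genes averaged under 10 in the 6 libraries compared and were tested only because of other libraries in the fit, with *Tgm1* at 0, 0 and 3.33 normalized counts in astrocytes and 2.38, 4.87 and 2.65 in microglia. *Sphk1*, at 1.33 ± 0.344 (adjusted p = 0.00262), was also called by limma without a trend (1.33) and without WT quiescent astrocyte replicate 3 (1.60).

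LPS-activated WT microglia were compared with quiescent WT microglia. Of 6 genes tested, 1 was called, against 20.8% of all 10866 genes tested, with 10.6% called lower and 10.2% higher. *Cd109* had 89.3, 96.8 and 93.9 normalized counts in quiescent and 30.1, 22.1 and 28.7 in LPS-activated microglia. All LPS-activated values were far below all quiescent values, without overlap. The log2 fold change was -1.77 ± 0.174 (SE; limma adjusted p = 9.68e-06), and the call held in 16 of 16 alternatives.

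*Emp1* had 286, 305 and 326 normalized counts in quiescent and 524, 626 and 501 in LPS-activated WT microglia. The LPS-activated libraries were all higher. The log2 fold change was 0.84 ± 0.109 (SE; limma adjusted p = 7.53e-05), under 2-fold. *Ptx3* had 20.8, 12.6 and 22.7 in quiescent and 35.3, 29.5 and 35.2 in LPS-activated microglia, a log2 fold change of 0.84 ± 0.264 (adjusted p = 0.0202). *B3gnt5* had 10.7, 4.21 and 15.1 in quiescent and 24.2, 29.5 and 19.5 in LPS-activated microglia, at 1.34 ± 0.415 (adjusted p = 0.0186), or 0.87 without WT quiescent replicate 2. *Sphk1* was at 0.80 ± 0.316 (adjusted p = 0.0525) and also higher in all LPS-activated libraries. It averaged 8.79 normalized counts in quiescent cells, under the filter, and was tested only because of its level after LPS. *Tm4sf1* overlapped, at 15.2, 21.0 and 9.84 before and 12.5, 19.7 and 24.7 after LPS, with a log2 fold change of 0.30 ± 0.355 (adjusted p = 0.502). Without WT quiescent replicate 2 or 3 it was 0.54 or 0.03, and without WT LPS-activated replicate 1 or 3 it was 0.55 or 0.09. Groups did not overlap for 5 of 6 genes, *Sphk1* among them, against 64.6% of all genes tested. *Tgm1*, too low to be tested, had 2.03, 4.21 and 2.27 normalized counts before and 14.7, 6.15 and 15.6 after LPS, all higher after LPS but from at most 20 reads in a library.

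The other ischemia-type markers were measured in the same comparison. *Ptgs2* (log2 fold change 6.89), *Clcf1* (3.80) and *Cd14* (2.47) were called higher with LPS, and *S100a10* was at -0.43, not called, so 3 of 4 were called. Of 10 tested pan-reactive markers 4 were called higher, led by the chemokine gene *Cxcl10* (6.09) and *Lcn2* (2.98). Of 9 tested neuroinflammatory markers 8 were called higher and 1 lower, with *Gbp2* at 6.21, the interferon-inducible gene *Iigp1* at 4.93 and the chaperone gene *Fkbp5* at -2.23. Among relatives of the 8 genes, the TGF-β receptor genes *Tgfbr1* (-2.45) and *Tgfbr2* (-2.19) were called lower and the ligand gene *Tgfb2* (3.64) and the co-receptor gene *Eng* (1.23) higher. *Tgm2* (1.36), *Pmp22* (1.24) and the hyaluronan synthase gene *Has1* (6.53) were called higher, and *Emp3* (-1.36), *B3gnt3* (-1.40) and *B3gnt7* (-3.19) lower. In the sphingosine-1-phosphate pathway *Sphk2* was called higher (1.11, but 0.93 with quantile normalization, under 2-fold), and *S1pr1* (-1.62) and the phosphatase gene *Sgpp1* (-1.05) lower. Without WT LPS-activated replicate 1, *Sgpp1* was at -0.96, under 2-fold. With LPS, 6 of 8 microglia markers were called lower, and their sums are given above, led by *Csf1r* before and *Itgam* after LPS, with 0 of the 8 at 0 throughout. In the same libraries the 8 astrocyte markers, led by *Gfap*, summed to between 151 and 164 RPM before and between 156 and 230 RPM after LPS, and 2 of 8 were called higher, *Slc1a2* (2.28) and *Gja1* (2.72). The 8 oligodendrocyte lineage markers, led by *Cspg4*, summed to between 1317 and 1359 RPM before and between 103 and 110 RPM after LPS, and 2 of 4 tested were called lower, *Cspg4* (-4.01) and *Mbp* (-2.21). The 8 endothelial markers summed to between 67.2 and 75.3 RPM before, led by *Flt1*, and between 45.6 and 55.9 RPM after, led by *Kdr*, with *Cldn5*, *Tek* and *Emcn* at 0 in both. Of 3 of these tested, *Flt1* was called lower (-3.47) and *Pecam1* (4.17) and *Kdr* (1.01) higher, and 8 of 16 alternatives kept the call of *Kdr*. It was lost without WT quiescent replicate 1 (1.03) or 2 (0.93) or WT LPS-activated replicate 2 (0.86) or 3 (1.03).

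The 8 pericyte and fibroblast markers, led by *Acta2*, summed to between 23.8 and 29.7 RPM before and between 27.9 and 35.3 RPM after LPS, with *Kcnj8* at 0 in both, and 1 of 5 tested was called, *Dcn* (4.98). The neuron markers stayed below 5 RPM and the epithelial or ependymal markers below 3 RPM in sum in these libraries, and none was tested. The part of these shifts in the values of *Cd109* and *Emp1* was not tested.

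The responses of the 2 cell types were compared as a difference within the fit of WT libraries, microglia with LPS minus astrocytes with cytokines. The treatments are different agents, so cell type and agent cannot be told apart here. Of 7 genes, 5 were called, against 15.2% of all 12334 genes tested (6.73% higher and 8.44% lower). *Ptx3* (-5.20 ± 0.385 on the log2 scale, SE; limma adjusted p = 9.8e-08), *Tm4sf1* (-4.77 ± 0.415; adjusted p = 4.94e-07), *Tgm1* (-4.49 ± 0.775; adjusted p = 0.000319) and *Cd109* (-2.29 ± 0.224; adjusted p = 1.55e-06) had the smaller or more negative response in microglia. *Emp1* had the larger one (1.26 ± 0.143; adjusted p = 7.42e-06), with log2 fold changes of 0.84 in microglia and -0.39 in astrocytes. *Sphk1* (-1.29; adjusted p = 0.0466) and *B3gnt5* (0.89; adjusted p = 0.118) were not called, and *B3gnt5* was at 0.41 without WT quiescent microglia replicate 2. *Tgm1* passed the filter of this fit only through WT activated astrocytes. The call of *Tgm1* was lost with edgeR (-3.61, adjusted p = 0.00721) and with limma without a trend (adjusted p = 0.00107). It was also lost without WT activated astrocyte replicate 1 (-4.26) or 2 (-4.54), WT quiescent astrocyte replicate 2 (-4.14) or WT quiescent microglia replicate 2 (-4.30), in a range of adjusted p from 7.83e-06 to 0.00721. Of the 4 other ischemia-type markers, *Ptgs2* had the larger response in microglia (4.48) and *S100a10* the smaller one (-2.07), while *Clcf1* did not differ past the limit (-0.05). *Cd14* was called (1.14), but each of 10 libraries, left out alone, took that call away, at values between 0.95 and 1.17, and with quantile normalization it was at 0.31.

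In LPS-activated microglia, *SOD1* G93A against WT, limma called 0 of 7 genes, against 0% of all 10679 genes tested, and DESeq2 and edgeR called 0 of the 7 and 3 and 0 of all genes. Of the 7, 2 had an unadjusted p under 0.05, *Emp1* and *Ptx3*, against 8.71% of all genes tested. *Emp1* had 521, 621 and 501 normalized counts in WT and 402, 417 and 243 in *SOD1* G93A LPS-activated microglia. *Ptx3* had 35.0, 29.3 and 35.2 in WT and 16.8, 26.0 and 13.3 in *SOD1* G93A cells. Both were lower in all *SOD1* G93A libraries, and lowest in replicate 3, the library described above. The log2 fold changes were -0.66 ± 0.202 for *Emp1* (SE; limma adjusted p = 0.571) and -0.84 ± 0.282 for *Ptx3* (adjusted p = 0.571). Without replicate 3 they were -0.41 and -0.64, 0 of 7 genes were called, and 2 of 7 had an unadjusted p under 0.05, against 5.45% of all genes. Groups did not overlap for 3 of 7 genes, *Emp1*, *Ptx3* and *Cd109*, against 18.2% of all genes tested. *Cd109* was higher in the *SOD1* G93A libraries, at 33.5, 38.2 and 39.8 normalized counts against 29.9, 21.95 and 28.65 in WT. Its log2 fold change was 0.46 ± 0.212 (SE; limma adjusted p = 0.577). The 4 other ischemia-type markers were compared between genotypes in the same way, and limma, DESeq2 and edgeR called 0 of 4 in quiescent astrocytes, in activated astrocytes and in LPS-activated microglia. In limma 2, 3 and 1 of them had an unadjusted p under 0.05 in these comparisons, against 8.70%, 20.4% and 8.71% of all genes.

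Cell markers differed between these LPS-activated libraries too. The microglia markers summed to between 2582 and 2665 RPM in WT, led by *Itgam*, and to 2859, 2945 and, in replicate 3, 4444 RPM in *SOD1* G93A libraries, led by *Csf1r*. The oligodendrocyte lineage markers, led by *Cspg4*, were at 103 to 110 RPM in WT and 149 to 248 RPM in *SOD1* G93A libraries, and the astrocyte markers, led by *Gfap*, at 156 to 230 RPM and 136 to 224 RPM. Sums of endothelial markers, led by *Kdr* and with *Cldn5*, *Tek* and *Emcn* at 0, were 45.6 to 55.9 RPM and 24.7 to 58.0 RPM. The pericyte and fibroblast markers, led by *Acta2* and with *Kcnj8* at 0, were at 27.9 to 35.3 RPM and 21.8 to 32.3 RPM. Of each list limma and edgeR called 0 genes, and DESeq2 called 1, *Cx3cr1* (1.06, adjusted p = 0.000716, in a range from 0.000716 to 0.691 over the alternatives). By limma *Cx3cr1* was at 1.01, or 0.75, under 2-fold, without replicate 3. In limma 2 of 8 tested microglia, 1 of 4 oligodendrocyte lineage, 0 of 8 astrocyte, 0 of 3 endothelial and 1 of 4 pericyte and fibroblast markers had an unadjusted p under 0.05, against 8.71% of all genes. Their part in the values of *Emp1* and *Ptx3* was not tested.

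Over the 7 conditions the 8 genes fell into different orders of level. *Ptx3* and *Tm4sf1* were highest in activated astrocytes, where the genotypes overlapped (419 ± 23.7 and 418 ± 45.8 RPM for *Ptx3*, 202 ± 20.3 and 204 ± 15.4 RPM for *Tm4sf1* in *SOD1* G93A and WT cells), and all other conditions were below 12 RPM in every library. *Tgm1* was highest in WT activated astrocytes at 30.2 ± 8.57 RPM, next in *SOD1* G93A activated astrocytes at 18.6 ± 2.99 RPM, without overlap, and then in LPS-activated microglia at 2.08 ± 0.128 and 2.00 ± 0.887 RPM, where the genotypes overlapped. *Cd109* was ordered from WT activated (134 ± 7.01 RPM) through *SOD1* G93A activated (105 ± 10.7 RPM) and WT quiescent (93.7 ± 17.5 RPM) to *SOD1* G93A quiescent astrocytes (52.2 ± 11.04 RPM). Of these, *SOD1* G93A activated and WT quiescent astrocytes overlapped. *Cd109* then followed in WT quiescent (17.7 ± 0.370 RPM), *SOD1* G93A LPS-activated (6.10 ± 0.644 RPM) and WT LPS-activated microglia (4.43 ± 0.796 RPM), none of which overlapped. *B3gnt5* was between 64.3 and 114 RPM on average in astrocytes and below 5 RPM in every microglia library. *Emp1* was highest in WT LPS-activated microglia at 90.04 ± 8.93 RPM and lowest in *SOD1* G93A activated astrocytes at 23.4 ± 0.867 RPM. *Sphk1* was below 6 RPM in every library.

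The genes most like 6 of the members in profile over the 21 libraries were found by Pearson r of log2(RPM + 1) among 12536 genes. These r values are pooled over conditions that form separate groups, and describe the profiles only. *Ptx3* was most like *Sox7* (r = 0.994), *Has2* (0.994) and *Chil1* (0.991). *Tm4sf1* was most like *Sox7* (0.993), *Lgi2* (0.991) and *Ptx3* itself (0.991). *Tgm1* was most like *Lcn2* (0.978), *Cxcl5* (0.978) and *Timp1* (0.977). *Sphk1* was most like *Bid* (0.888), *Lcn2* (0.860) and *Cebpd* (0.854). *B3gnt5* was nearest to *Nlgn2* (0.992), *C1qtnf6* (0.992) and *Fjx1* (0.991) and *Emp1* to *Cog8* (0.946), *Gsk3a* (0.934) and *Oser1* (0.934). Between members, r was 0.917 for *Tgm1* and *Ptx3*, 0.892 for *Cd109* and *B3gnt5*, and -0.871 for *Cd109* and *Emp1*.

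The promoters of *Tgm1*, *Ptx3* and *Tm4sf1* are shown because these genes rose together in activated astrocytes. RefSeq (GRCm38.p6) gave 13 promoters for 7 of the 8 genes, and the 250 bases before each start were searched on both strands for the NF-κB consensus, for the AP-1 motif TGANTCA and for the STAT motif TTCNNNGAA. Of all 32851 RefSeq promoters, 3.9% held the NF-κB consensus, 6.75% the AP-1 motif and 7.02% the STAT motif in these 250 bases. Among the 13 promoters, 1 held the NF-κB consensus, 3 the AP-1 motif and 4 the STAT motif. The promoters overlap in part, and 2 of those of *Sphk1* share 1 stretch that holds the same AP-1 and STAT matches, so that stretch is counted in both. The AP-1 matches were in *Sphk1* and *Emp1*, and the STAT matches in *Tgm1*, *Sphk1* and *Emp1*. In *Emp1* an AP-1 and a STAT match overlap. The *Ptx3* promoter held none of the 3 motifs, nor did the other of 2 *Tgm1* promoters (chr14:55713089-55713338), which is not shown. The RefSeq start of *Ptx3* (chr3:66219887) lies before the gene start given above. Of the 13 promoters, only that of *Ptx3* had first transcribed bases that were not found in a transcript of the GENCODE annotation. A match is a description of the sequence and not a site. In the sequences, 5′ to 3′ on the strand of the gene, capitals mark the NF-κB match in *Tm4sf1* (starting 28 bases before the transcript) and the STAT matches in *Tgm1* (starting 173 and 64 bases before it).
*Tm4sf1* (chr3:57301989-57302238, minus strand): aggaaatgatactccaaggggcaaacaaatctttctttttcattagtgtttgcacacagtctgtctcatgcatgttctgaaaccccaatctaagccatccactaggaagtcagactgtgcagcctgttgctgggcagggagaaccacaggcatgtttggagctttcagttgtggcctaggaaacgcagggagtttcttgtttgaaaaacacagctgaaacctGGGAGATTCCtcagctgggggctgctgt
*Tgm1* (chr14:55713493-55713742, minus strand): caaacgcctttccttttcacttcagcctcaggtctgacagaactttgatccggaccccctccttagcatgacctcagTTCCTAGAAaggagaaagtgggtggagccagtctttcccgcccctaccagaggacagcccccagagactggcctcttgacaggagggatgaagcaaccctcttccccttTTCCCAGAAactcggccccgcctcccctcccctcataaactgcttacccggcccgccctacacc
*Ptx3* (chr3:66219637-66219886, plus strand): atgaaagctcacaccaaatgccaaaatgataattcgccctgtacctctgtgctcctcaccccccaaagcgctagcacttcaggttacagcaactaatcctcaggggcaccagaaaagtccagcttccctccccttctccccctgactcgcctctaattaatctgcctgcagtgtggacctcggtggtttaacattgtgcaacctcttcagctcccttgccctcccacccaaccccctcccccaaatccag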

How the data were processed

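RNA-seq was analysed in 21 libraries of 7 conditions. The authors aligned reads with STAR 2.7.3a to mm10, counted genes with RSEM and divided counts by DESeq2 size factors within each comparison, and these deposited normalized signal values are whole reads over 1 factor per library. Whole reads were recovered from them (100% of 878796 values whole at a tolerance of 1e-06). Testing used limma 3.58.1 (R 4.3.3, intensity trend, pseudocount 1) on genes whose mean was 10 or more, in 5 of the 6 deposited comparisons, each of 6 libraries. The other, *SOD1* G93A LPS-activated against WT quiescent microglia, was read but not tested. The recovered reads, scaled together, gave 4 contrasts in fits of 12 libraries. Benjamini-Hochberg adjustment covered all genes tested. Alternatives were quantile and TMM normalization, pseudocounts of 0.5 and 5, no filter, at least 10 in every library, no trend, DESeq2 1.42.0, edgeR 4.0.16, a looser limit, a replicate block and leaving out each library. Replicate numbers were not treated as pairs. All members were named, with the other ischemia-type markers, up to 2 called genes with the largest rise and fall of each other list, members' gene families, and the 3 genes most like 6 of the members. Members and lists were chosen with earlier results of these data known. The 3 libraries of *SOD1* G93A quiescent microglia were left out because the expression data read here held no values for them.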

Additional observations from a re-analysis of the deposited data

Results flagged for a closer look

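The responses of microglia to LPS and of astrocytes to IL-1α, TNFα and C1q were set side by side because the test of their difference, in 1 fit of 12 WT libraries, passed the limit for 5 genes. *Sphk1* and *B3gnt5* were tested and not called. Of all 12334 genes tested, 15.2% were called in the same test, 6.73% higher and 8.44% lower. On the log2 scale the microglial response minus the astrocyte response was -4.49 for *Tgm1*, -5.20 for *Ptx3*, -4.77 for *Tm4sf1*, -2.29 for *Cd109* and 1.26 for *Emp1*. *Tgm1* was tested only because of its level in WT activated astrocytes. Its call held in 15 of 21 alternatives, and was lost with edgeR (-3.61), without a trend (-4.49) and without WT activated astrocyte replicate 1 (-4.26) or 2 (-4.54), WT quiescent astrocyte replicate 2 (-4.14) or WT quiescent microglia replicate 2 (-4.30). The agents differ between the cell types, and cell type and agent cannot be told apart.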

How the results depend on the processing

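Of 177 alternative values of the 9 counts of called genes, 173 stayed within 1.5 times the count reported. At an adjusted p under 0.05 and any fold change, 7 of 7 tested genes were called in WT activated against quiescent astrocytes. The count was 3 of 7 in *SOD1* G93A against WT activated astrocytes and 4 of 6 in WT LPS-activated against quiescent microglia. In WT quiescent microglia against astrocytes it was 5 of 7, with 47.6% of all genes called at the reported limit. The looser limit calls more genes by construction, and the share of all genes called at it is not given here. At an unadjusted p under 0.05 in limma there were 46.8% of all genes for WT astrocyte activation, 20.4% between activated genotypes and 61.6% for LPS in WT microglia. These counts are therefore not read as a result about these genes. With a replicate block the counts did not move. Of 1109 alternative values of 60 log2 fold changes, 1068 kept direction and side of the limit, 8 lost and 11 gained the call, and 22 changed sign, none of them in a called result. With quantile normalization *Tm4sf1* was at -0.06 in *SOD1* G93A against WT quiescent and -0.01 in activated astrocytes, and *Ptx3* at -0.03 in the latter. In WT quiescent microglia against astrocytes the main values were -0.25 for *Ptx3* and -0.49 for *Tm4sf1*, neither called. With quantile normalization they were 0.70 and 0.53. *Tm4sf1* between quiescent genotypes was at -0.01 with DESeq2 and -0.03 with edgeR, and its difference between responses at -0.0042 with TMM. Leaving out 1 library gave -0.18 to 0.26 for *Tm4sf1* between quiescent genotypes, -0.05 to 0.08 between activated genotypes and -0.24 to 0.21 for its difference between responses. It gave -0.01 to 0.14 for *Ptx3* between activated genotypes and -0.45 to 0.10 between quiescent cell types. Between genotypes in LPS-activated microglia it gave -0.61 to 0.03 for *Sphk1* and -0.24 to 0.38 for *Tgm1*. The causes were not tested. Depth limits *Slc10a6*, *Sphk1* and quiescent *Tgm1*, with few reads in each library.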
